A study of Arabidopsis thaliana with 8 samples.

Results

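In leaves of Arabidopsis thaliana, 159 well-expressed genes had a lower signal on the arrays labelled fbn5-1 than on those labelled wild type, out of 16552 genes that had a probe set naming them alone. A gene entered the set when its mean on the 4 wild type arrays was 6 to 11 on the log2 scale, its highest fbn5-1 array lay below its lowest wild type array, and its fbn5-1 mean was at least 0.6 below its wild type mean. COR47, KIN2, SIS, DER2.1, DER2.2 and SWEET11, and symbols beginning with ATG8, CYP, UGT, GST, EXP, XTH, GH9, TBL, CRK or CML, were left out by name. Of these, COR47, SWEET11, DER2.2, ATG8F, DER2.1 and SIS met the numbers. Because the members were selected on the measured values of this contrast, their differences are descriptions. The counts of members called, and whether a member's call held without an array, come from the same values and are no evidence for the set.

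Of the 159 members, 23 carry a gene name beyond a locus identifier, and these span the ubiquitin system, vacuolar proteolysis, membrane traffic, nitrogen and one-carbon metabolism, redox enzymes, and sugar and ion transport. Ubiquitin-conjugating (E2) enzymes pass ubiquitin towards target proteins, which marks them for breakdown or for sorting. The ESCRT machinery sorts marked membrane proteins at the endosome, and vacuolar proteases cut and mature proteins in the vacuole. FBN5 encodes a fibrillin, a lipid-associated protein of the plastid that is linked to plastoquinone, the electron carrier of the thylakoid membrane. The other 136 members are known here by locus identifier only, and no role is given to them.

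Total RNA of leaves was hybridised to one-colour Affymetrix arrays, 4 labelled wild type (control plants) and 4 labelled fbn5-1, a T-DNA insertion line of FBN5, all in the Col-0 background. Both genotypes were grown for 3 weeks on 0.5x MS medium with 1% sucrose, at 25 °C, 60% humidity and 16 h of light to 8 h of dark, and neither received a treatment. The mutant is a single insertion line, with no second allele or complemented line among these arrays. The labels number the replicates but do not say whether they came from separate plants or cultures, so the spread between arrays may be technical.

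The targeted gene was not lower on the arrays labelled fbn5-1. FBN5 (AT5G09820) read 3.54, 3.35, 3.43 and 5.15 on wild type arrays 1 to 4 and 4.71, 4.52, 4.76 and 4.58 on fbn5-1 arrays 1 to 4, and its difference of 0.775 did not pass the limma test over all tested probe sets (adjusted p = 0.173). The groups overlapped through wild type array 4. The position of this probe set relative to the insertion is not given, so arrays are called by their labels and every direction rests on those labels.

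Wild type array 4 stood apart from the other arrays of its label. Over all tested probe sets its correlation with wild type arrays 1 to 3 was 0.929 to 0.933, against 0.985 to 0.988 among those 3, and 0.970 to 0.985 among the fbn5-1 arrays. The leaf label was met by the mesophyll markers measured: RCA read 10.87 to 11.08, LHCB4.1 9.18 to 9.46 and LHCB4.2 8.76 to 9.07 over the 8 arrays, none of them called, while LHCB4.3 read 1.59 to 2.32. The summed linear signal of these 4 markers was 3228 to 3285 on wild type arrays and 2986 to 3198 on fbn5-1 arrays. Marker lists of other cell types held 0 members, a count that the rule's level window nearly fixes. Only PYK10 and AGL65 of their measured genes had a wild type mean of 6 to 11 (8.78 and 6.11). AGL65 came close to the rule, with a difference of -0.5925. Their summed signal was 49.2 to 69.9 in wild type and 54.0 to 92.3 in fbn5-1 for 3 guard cell genes (SPCH called higher), 27.5 to 64.5 and 75.1 to 101.8 for the trichome gene TRY (called higher), and 106.0 to 131.9 and 65.3 to 73.8 for 6 flower and pollen genes (AGL65 and AGL104 called lower). The root marker PYK10 was as bright as LHCB4.1 on all arrays but wild type array 4. It read 9.23, 9.70, 9.34 and 6.84 on wild type arrays 1 to 4 and 9.26 to 9.72 on fbn5-1 arrays, and was not called. On the linear scale this was 115 to 832 and 613 to 843. What a root marker at this level means for the tissue sampled was not tested. The phloem gene OPS, the seed gene OLEO3 and the meristem gene CLV3 read at most 2.91, and no xylem marker was measured. Whether a different mix of cells has a part in the members' differences was not tested. In leaf RNA as a whole, fewer cells of a type and less RNA per cell cannot be told apart.

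At the level of the members, lower signals in fbn5-1 outnumbered higher ones, in a window set on the wild type mean alone. Genes that rise into this window in fbn5-1 are left out, while genes that fall out of it are kept. This choice favours lower signals, and its share in the excess was not tested. Of 2125 probe sets with a wild type mean of 6 to 11 and a name not left out, the 159 members are 7.48%, whereas the mirror of the rule, higher by 0.6 or more without overlap, was met by 49 (2.31%). With quantile normalization of the 8 arrays, 2084 probe sets lay in the window. Of the 159 members, 113 then met the rule, and 68 probe sets met its mirror. Of the same 2125, limma called 393 lower (18.5%) and 160 higher (7.53%), so 71.1% of calls were lower. The groups did not overlap in 23.9% with fbn5-1 below and in 10.1% with fbn5-1 above. After quantile normalization the calls among the 2084 were 299 lower and 232 higher, so 56.3% were lower.

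All 159 members passed the filter on low values and were among the 17147 probe sets tested. Over those, 16.8% were called, 1466 lower (8.55%) and 1410 higher (8.22%). Of the members, 143 were called lower and 16 were not, a count that the rule largely fixes. The median difference of the members was -0.77 on the log2 scale, a 1.70-fold lower signal. It was -0.09 over the other probe sets of this level and -0.015 over all tested. Within the set, the wild type level and the difference were unrelated in rank (Spearman's rho -0.02 across the 159 members, which share the same 8 arrays).

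**Figure D1:**
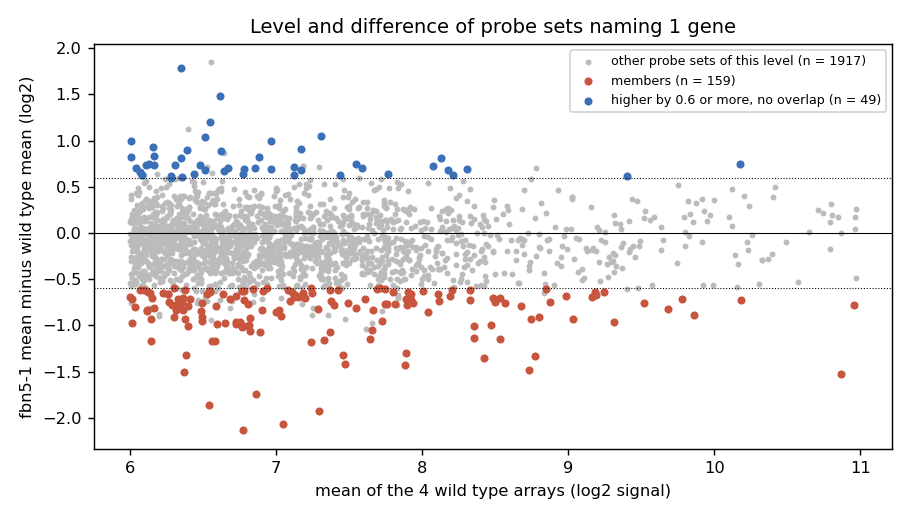
Each point is a probe set naming 1 gene with a wild type mean of 6 to 11. The x axis is the mean of the 4 wild type arrays and the y axis the fbn5-1 mean minus the wild type mean, both on the log2 scale, with dotted lines at 0.6 above and below 0. The 159 members lie along the whole range of levels, and the 49 probe sets that are higher by 0.6 or more without overlap are fewer. Points past a dotted line that are grey had overlapping groups.

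The members covered the whole level window. Their wild type mean was 6 to under 7 for 74 members, 7 to under 8 for 47, 8 to under 9 for 25, and 9 or more for 13. As shares of all probe sets at these levels, the members made up 6.34% of 1168, 7.44% of 632, 12.5% of 200 and 10.4% of 125.

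By size, 31 members were lower by 1 or more on the log2 scale, which is a fold of at least 2 on the linear scale, and 27 of them were called. Those known by locus identifier only were AT2G35070, AT1G64360, AT2G32160, AT1G57590, AT1G67865, AT1G51090, AT2G32870, AT1G55265, AT2G15830, AT1G80130, AT3G62550, AT5G42825, AT1G76960, AT5G55970, AT1G02610, AT2G24550, AT5G66490, AT4G33960, AT5G44060, AT4G27450, AT1G78070, AT2G12400, AT5G59080, AT1G50740, AT3G52800, AT2G21185, AT5G10946 and AT2G39850. The named ones were FAMT, MSRB4 and SWEET13.

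A further 35 members were lower by 0.8 to under 1, and 33 were called. They were UBC28, FDH, ATGP4, GAMMA-VPE and DELTA-OAT among the named genes, and the loci AT4G00780, AT2G20210, AT3G53310, AT1G49470, AT3G53990, AT1G01725, AT2G47890, AT1G70590, AT5G14940, AT1G64370, AT2G47560, AT4G38550, AT5G18630, AT1G67860, AT1G15740, AT1G74940, AT5G21020, AT1G74840, AT4G32340, AT4G32030, AT3G52105, AT5G18260, AT1G20890, AT1G69450, AT4G10000, AT4G18070, AT1G73750, AT4G39140, AT1G55675 and AT5G28750.

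Differences of 0.7 to under 0.8 were found for 44 members, of which 41 were called. ARLA1C, ECS1, GLX2-5, ACYB-2, ALN and CYN were the named ones. The others were AT5G50130, AT5G18640, AT4G19860, AT3G47550, AT3G09540, AT4G14990, AT4G21570, AT5G05230, AT5G19590, AT2G31800, AT4G37180, AT2G40270, AT1G73480, AT1G76590, AT1G23040, AT5G57655, AT3G07350, AT5G10780, AT5G20190, AT1G61065, AT2G41410, AT1G78890, AT5G47860, AT4G16190, AT1G24160, AT5G47180, AT3G30390, AT5G25840, AT1G16180, AT1G24148, AT2G39400, AT5G11650, AT1G09910, AT1G49500, AT2G25250, AT2G32880, AT3G18770 and AT3G43670.

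The remaining 49 members, 42 of them called, were lower by 0.6 to under 0.7. Their named genes were PWD, VPS2.1, AT1G53210 (NCL), SFP2, UBC29, UBC36, ARLA1D, DI19 and pEARLI4. The loci were AT3G11930, AT4G02860, AT1G80610, AT3G15530, AT3G16190, AT1G20225, AT5G10960, AT5G16030, AT1G56220, AT3G06330, AT5G67140, AT2G14080, AT1G21680, AT3G17020, AT3G10130, AT2G18270, AT3G01490, AT1G28140, AT2G39000, AT3G60300, AT1G04970, AT5G23575, AT4G34480, AT3G17410, AT3G26380, AT2G38800, AT2G01060, AT2G32150, AT3G58720, AT4G30690, AT1G76460, AT1G76955, AT5G20700, AT1G31440, AT3G56050, AT4G34180, AT4G36550, AT1G27540, AT1G75400 and AT3G02070.

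**Figure D2:**
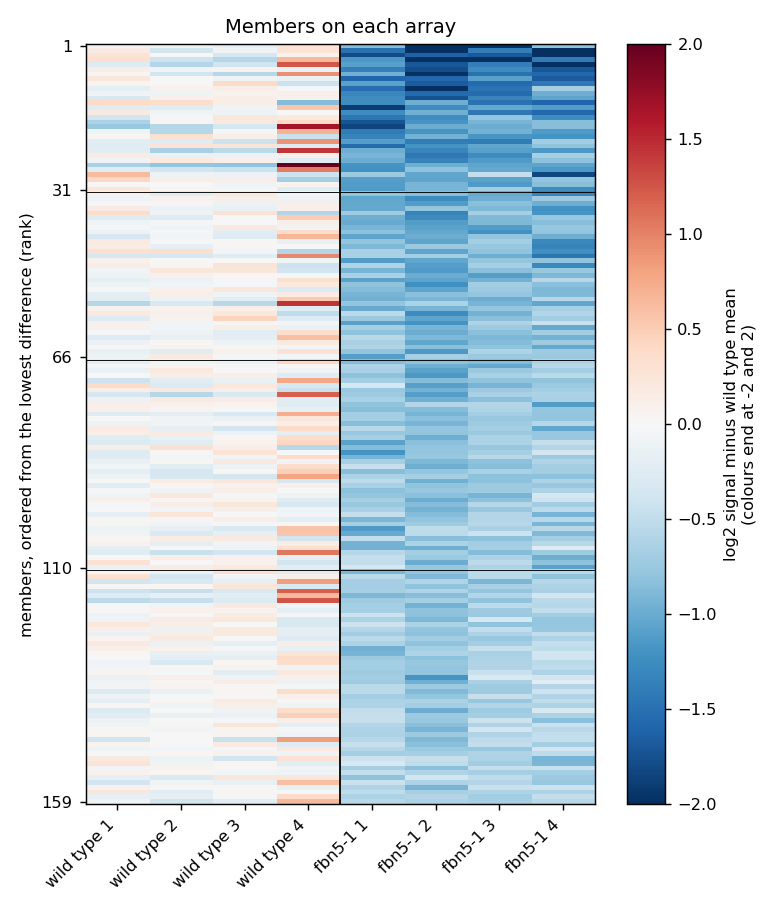
The 159 members (rows, from the lowest difference at the top) on the 8 arrays (columns), coloured by log2 signal minus the member's own wild type mean. Horizontal lines mark differences of 1, 0.8 and 0.7. The fbn5-1 columns are below the wild type mean in every row, as the rule requires, and the wild type array 4 column has the deepest red cells and some blue ones.

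The lowest difference was that of AT2G35070, whose fbn5-1 arrays were spread widely. It read 6.72, 6.70, 6.61 and 7.05 on wild type arrays 1 to 4, and 5.91, 3.30, 3.38 and 5.95 on fbn5-1 arrays 1 to 4 (6.77 ± 0.19 and 4.64 ± 1.5, SD, n = 4). The difference was -2.135, with fbn5-1 arrays 2 and 3 far below arrays 1 and 4. It was called on 8 arrays and in 2 of the 8 fits that each left out 1 array, those without fbn5-1 array 1 or 4.

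AT1G64360 and AT2G32160 followed with wider separation. AT1G64360 read 7.21, 6.67, 6.98 and 7.32 in wild type and 5.55, 4.99, 5.66 and 3.73 in fbn5-1, a difference of -2.06. AT2G32160 read 7.56, 7.29, 6.96 and 7.36 against 5.5, 5.67, 5.61 and 4.69, a difference of -1.925. In both, fbn5-1 array 4 was the lowest. The gap between the lowest wild type and the highest fbn5-1 array was 1.01 and 1.29, and the second is the widest of the 159.

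AT1G67865 and AT2G32870 had wide gaps and little spread in wild type. The first gene's wild type arrays read 11, 10.81, 10.94 and 10.73 and the fbn5-1 arrays 9.50, 9.10, 9.61 and 9.17, with means of 10.87 ± 0.12 and 9.35 ± 0.25 (SD, n = 4) and a gap of 1.12. AT2G32870 read 8.95, 8.74, 8.64 and 8.59 against 7.14, 7.16, 7.64 and 7.06, a difference of -1.48 with a gap of 0.95. Neither difference rested on a single array, and both calls held without each array in turn.

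AT1G57590 and AT1G51090 were spread in both groups. AT1G57590 read 6.88, 6.13, 5.97 and 7.19 in wild type and 5.40, 3.77, 4.42 and 5.15 in fbn5-1 (difference -1.86). AT1G51090 read 6.41, 5.99, 5.79 and 7.28 against 5.40, 4.39, 4.87 and 4.80 (difference -1.5025). The highest value in both was on wild type array 4, and without it the differences were -1.64 and -1.20.

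AT1G55265, AT2G15830, AT1G80130 and AT3G62550 complete the 12, with FAMT, which is described with the metabolic enzymes. AT1G55265 read 7.94, 7.87, 8.27 and 7.46 against 6.82, 6.22, 6.33 and 6.45 (difference -1.43), with wild type array 4 the lowest of its group. AT2G15830 read 7.29, 7.54, 7.60 and 7.45 against 5.94, 5.47, 5.99 and 6.81 (difference -1.42), with fbn5-1 array 4 nearest to wild type. The last pair had gaps of 0.88 and 0.75. AT1G80130 read 8.35, 8.32, 8.49 and 8.52 against 7.11, 6.86, 6.88 and 7.44, a difference of -1.35. AT3G62550 read 8.47, 8.86, 8.91 and 8.86 against 7.54, 7.04, 7.46 and 7.72, a difference of -1.335, its wild type array 1 lying below the other 3.

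**Figure D3:**
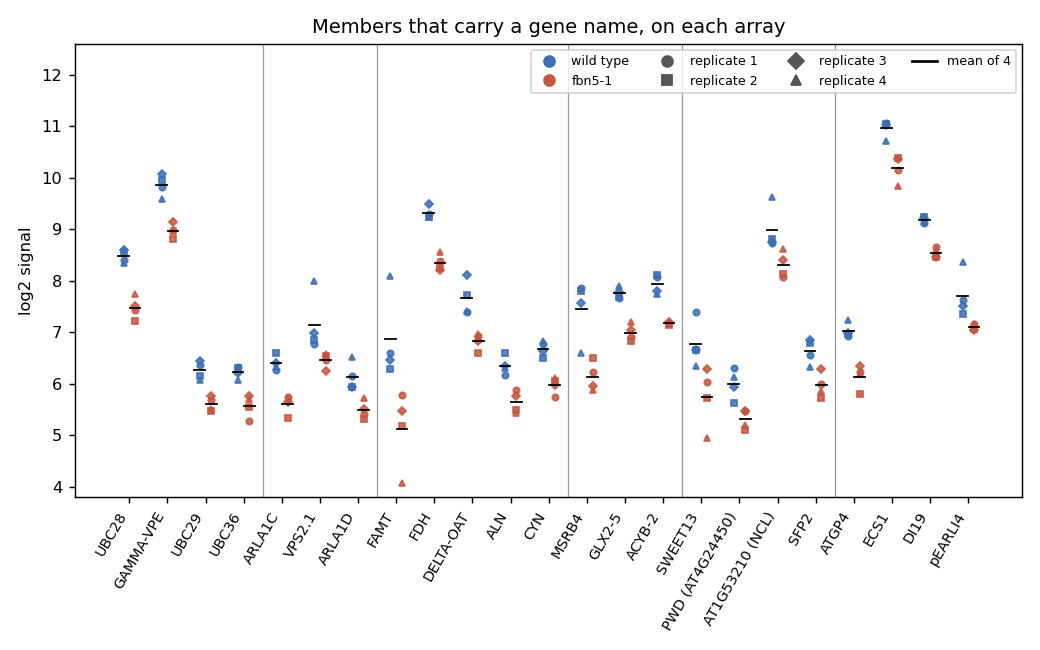
Log2 signal of the 23 members that carry a gene name, one symbol per array (shape: replicate number), with a bar at the mean of 4; blue is wild type, red fbn5-1, and vertical lines separate the functions described in the text. No red symbol reaches a blue one of the same gene, and wild type array 4 (blue triangle) stands well above the other wild type symbols in FAMT, VPS2.1, NCL and pEARLI4 and well below them in MSRB4.

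Members of the ubiquitin system and of vacuolar proteolysis were UBC28, UBC29, UBC36 and GAMMA-VPE, all 4 called, with differences from -0.995 to -0.65. UBC28, an E2 enzyme, read 8.40, 8.55, 8.59 and 8.35 on wild type arrays 1 to 4 and 7.44, 7.22, 7.50 and 7.75 on fbn5-1 arrays 1 to 4. Its means were 8.47 ± 0.12 and 7.48 ± 0.22 (SD, n = 4), a 1.99-fold lower signal, with a gap of 0.60 between the groups. UBC29 read 6.36, 6.15, 6.45 and 6.08 against 5.68, 5.47, 5.76 and 5.5, a difference of -0.66. UBC36 read 6.32, 6.31, 6.2 and 6.07 against 5.27, 5.55, 5.76 and 5.71, a difference of -0.65. In each of these 3, no single array carried the difference, and the call held in all 8 fits that left out 1 array.

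GAMMA-VPE, a cysteine protease of the vacuole that processes other vacuolar proteins, was lower on all fbn5-1 arrays. It read 9.83, 9.95, 10.08 and 9.58 in wild type and 8.99, 8.81, 9.14 and 8.96 in fbn5-1 (9.86 ± 0.21 and 8.98 ± 0.14, SD, n = 4), a 1.85-fold lower signal. All fbn5-1 arrays lay at least 0.44 below all wild type arrays. BETA-VPE, not a member, read 6.75, 6.41, 6.74 and 6.06 against 5.86, 5.68, 5.74 and 6.15, so its groups overlapped through wild type array 4 and fbn5-1 array 4. Its difference of -0.63 (SE 0.17) was called by limma (adjusted p = 0.0367), and the call ended without wild type arrays 1 to 3 or fbn5-1 arrays 1 to 3 (highest adjusted p = 0.0934). ALPHA-VPE was below the filter, at 1.78 to 2.11 on every array.

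Membrane traffic was represented by ARLA1C, ARLA1D and VPS2.1, with differences of -0.79, -0.645 and -0.69, of which the first 2 were called. ARLA1C and ARLA1D are small GTPases related to ADP-ribosylation factors. ARLA1C read 6.26, 6.60, 6.40 and 6.33 against 5.75, 5.33, 5.65 and 5.71, with a gap of 0.51. ARLA1D read 6.15, 5.94, 5.94 and 6.51 against 5.41, 5.32, 5.5 and 5.73, and its difference without wild type array 4 was -0.52. ARLA1D's call ended without wild type array 1 or without any of fbn5-1 arrays 1 to 3. ARLA1A, the third tested gene of this family, had a difference of 0.38 (SE 0.15, adjusted p = 0.118 by limma), which was not called.

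VPS2.1 encodes a subunit of ESCRT-III, the complex that shapes vesicles inside the multivesicular body on the way to the vacuole. It read 6.77, 6.85, 6.98 and 7.99 in wild type and 6.46, 6.54, 6.24 and 6.58 in fbn5-1, so wild type array 4 was more than 1 above the mean of the other 3. Without that array the difference was -0.41, smaller in size than the rule's 0.6, although the gene was then called. Of 11 tested VPS or SNF7 genes, 0 were called lower and 1 higher on 8 arrays, with a median of -0.235. Without wild type array 4, 2 were called lower and 1 higher. The gene called higher, VPS2.2, rose from 2.97 ± 0.15 to 3.79 ± 0.26 (SD, n = 4; difference 0.82, SE 0.15, adjusted p = 0.00795 by limma), and that call held without each array in turn. With 16 added to the linear signal the difference was 0.33, and its wild type level lies close to the filter.

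Of the enzymes of nitrogen, one-carbon and other small-molecule metabolism, 5 were members: FAMT, FDH, DELTA-OAT, ALN and CYN. All 5 were called, with differences from -1.74 to -0.71. FDH, the mitochondrial formate dehydrogenase, read 9.29, 9.23, 9.49 and 9.24 in wild type and 8.38, 8.24, 8.20 and 8.56 in fbn5-1 (9.31 ± 0.12 and 8.35 ± 0.16, SD, n = 4). Its signal was 1.96-fold lower, and the gap of 0.67 was several times the SD of either group.

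DELTA-OAT, the mitochondrial ornithine aminotransferase that links arginine breakdown to glutamate and proline, read 7.40, 7.73, 8.11 and 7.41 against 6.92, 6.60, 6.82 and 6.97, a difference of -0.835. ALN, allantoinase, acts in the breakdown of purines through ureides, and read 6.16, 6.60, 6.35 and 6.30 against 5.87, 5.48, 5.77 and 5.43, a difference of -0.715. CYN, cyanase, splits cyanate with bicarbonate into carbon dioxide and ammonia, and read 6.77, 6.5, 6.63 and 6.83 against 5.74, 6.05, 5.98 and 6.12, a difference of -0.71. In these 3 enzymes the gaps were 0.43, 0.29 and 0.38, and their calls held in all 8 fits that left out 1 array.

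FAMT, which methylates farnesoic acid, had the lowest difference of the named members and the least even values. It read 6.60, 6.28, 6.46 and 8.10 in wild type and 5.78, 5.17, 5.47 and 4.07 in fbn5-1 (6.86 ± 0.84 and 5.12 ± 0.74, SD, n = 4), a difference of -1.74. The extremes were wild type array 4, high, and fbn5-1 array 4, low. Without wild type array 4 the difference was -1.32. The call ended without wild type arrays 1 or 3 or without fbn5-1 arrays 2, 3 or 4.

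Redox and detoxifying enzymes among the members were MSRB4, GLX2-5 and ACYB-2, all 3 called. MSRB4, a methionine sulfoxide reductase that repairs oxidised methionine in proteins, read 7.86, 7.81, 7.57 and 6.60 in wild type and 6.22, 6.49, 5.96 and 5.88 in fbn5-1. Wild type array 4 was more than 1 below the mean of the other 3 and lay just 0.11 above the highest fbn5-1 array. The difference was -1.32 on 8 arrays and -1.61 without wild type array 4. MSRB5 had the same low wild type array 4 (5.5, 5.26, 5.63 and 3.97 against 4.39, 4.88, 4.32 and 4.02), and its difference of -0.69 was not called on 8 arrays. Of the 6 tested MSR genes, MSRB6 was called higher (0.75, SE 0.18, adjusted p = 0.0249 by limma), a call that ended without wild type arrays 1 to 3 or fbn5-1 arrays 1 to 3 (highest adjusted p = 0.0684). Its difference was 0.385 with 16 added to the linear signal. Without wild type array 4, 2 of the 6 tested MSR genes were called lower and 1 higher.

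GLX2-5, of the glyoxalase II family that clears the glutathione conjugate of methylglyoxal, sits at the median of the set. It read 7.66, 7.69, 7.79 and 7.89 against 6.90, 6.82, 7.05 and 7.19, a difference of -0.77 with a gap of 0.47. The other tested genes of the family, GLX2-1 (-0.245) and GLX2-4 (0.115), were not called. ACYB-2, a cytochrome b561 of the kind that passes electrons from ascorbate across membranes, read 8.07, 8.11, 7.81 and 7.75 against 7.18, 7.15, 7.19 and 7.18, a difference of -0.76. Its 4 fbn5-1 arrays had an SD of 0.017.

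Of the 4 transport and starch genes, SFP2 and PWD were called, and SWEET13 and AT1G53210 (NCL) were not. SWEET13 exports sucrose from cells towards the phloem. It read 7.39, 6.66, 6.65 and 6.35 in wild type and 6.04, 5.72, 6.29 and 4.94 in fbn5-1 (6.76 ± 0.44 and 5.75 ± 0.59, SD, n = 4). The difference was -1.015, but the groups came within 0.06 of each other, and both ranged widely. It was called without wild type array 4 or without fbn5-1 array 3. SWEET11, left out of the set by name, was called lower (-0.62, SE 0.08, adjusted p = 0.00274), and SWEET2 was called higher (1.26, SE 0.19, adjusted p = 0.00393), both by limma and in all 8 fits without 1 array. With 16 added to the linear signal the difference of SWEET2 was 0.70. Of the 7 tested SWEET genes, 5 were not called.

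SFP2, a sugar porter of the ERD6-like type, read 6.56, 6.80, 6.85 and 6.33 against 6.0, 5.73, 6.29 and 5.86, a difference of -0.665. Wild type array 4 and fbn5-1 array 3 came within 0.04, and the call ended without wild type arrays 2 or 3 or fbn5-1 array 2. SFP1 had a difference of -0.37 and was not called. Its low values were wild type array 4 (6.70) and fbn5-1 arrays 1 and 4 (6.57 and 6.68).

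The member listed as PWD is AT4G24450, which the RefSeq table also names ATGWD2 and GWD3, of the dikinase type that phosphorylates starch glucans. It read 6.31, 5.62, 5.94 and 6.13 against 5.46, 5.11, 5.46 and 5.20, a difference of -0.69, and its call ended without fbn5-1 array 2. Another locus, AT5G26570, carries the symbol PWD too, and its difference was -0.32 with overlapping groups. NCL (AT1G53210), named as a sodium/calcium exchanger, read 8.73, 8.82, 8.76 and 9.63 against 8.08, 8.14, 8.40 and 8.61. Its difference was -0.68 on 8 arrays and -0.46 without wild type array 4, when it was called.

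The remaining named members were ATGP4, ECS1, DI19 and pEARLI4, with all but pEARLI4 called. DI19, a zinc finger protein named for induction by drought, was the steadiest of them. It read 9.13, 9.24, 9.21 and 9.15 in wild type and 8.65, 8.46, 8.47 and 8.60 in fbn5-1 (9.18 ± 0.05 and 8.55 ± 0.09, SD, n = 4), a 1.56-fold lower signal with a gap of 0.48. ECS1, which encodes a small cell wall protein, lies at the upper end of the level window. It read 11.06, 11.04, 11.03 and 10.71 against 10.15, 10.38, 10.37 and 9.84, a difference of -0.775, with array 4 the lowest of each group.

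ATGP4, to which no role is given here, read 6.93, 6.97, 6.99 and 7.23 against 6.22, 5.80, 6.34 and 6.19, a difference of -0.89 with a gap of 0.59. pEARLI4, named after a transcript induced by aluminium, read 7.63, 7.35, 7.50 and 8.36 against 7.16, 7.07, 7.05 and 7.16. Its difference of -0.60 became -0.38 without wild type array 4, the highest of its arrays, and it was called only in that fit.

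**Figure D4:**
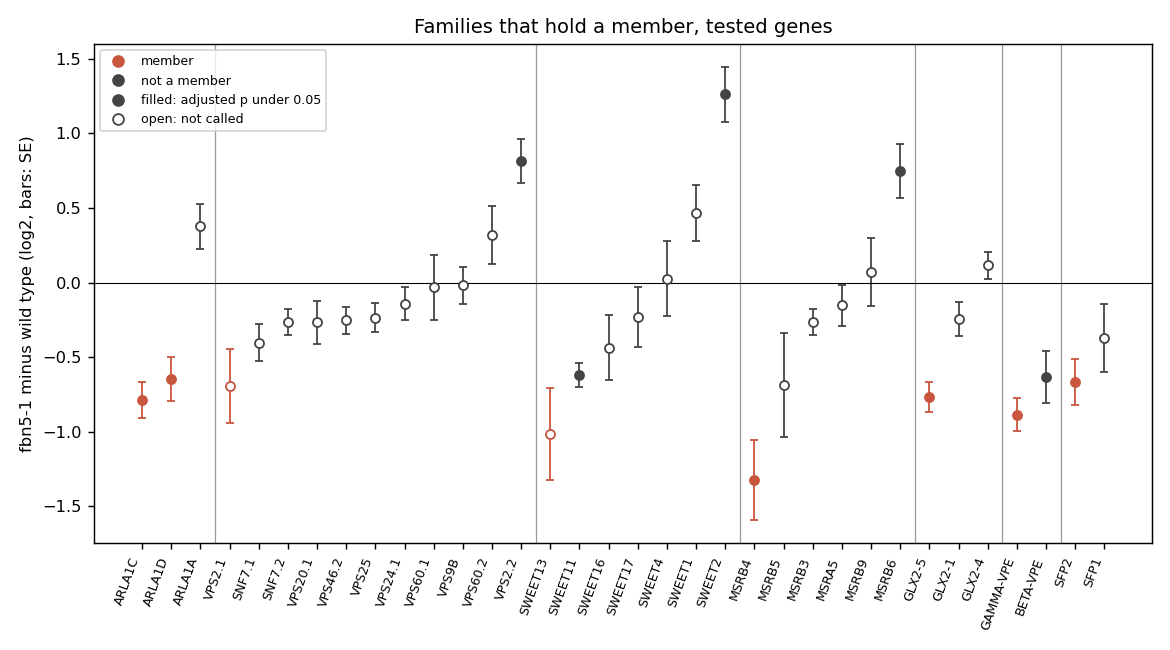
Difference of each tested gene in 7 gene families that hold a named member (points, with the SE of the limma fit on the log2 scale). Members are red, filled points were called at an adjusted p under 0.05, and vertical lines separate the families ARLA1, VPS or SNF7, SWEET, MSR, GLX2, VPE and SFP. VPS2.2, SWEET2 and MSRB6 are the filled points above it.

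Spread from array to array was wider among the members than among the other probe sets of this level. The median SD over the 4 wild type arrays was 0.217 for the members and 0.146 for the other probe sets, and over the 4 fbn5-1 arrays 0.187 and 0.130. The members were chosen on these same arrays. A high wild type array or a low fbn5-1 array widens the spread and also helps a gene to enter the set. Nothing is read from these SDs. The gap between the lowest wild type and the highest fbn5-1 array had a median of 0.33 and a range of 0.02 to 1.29. It was 0.5 or more for 41 members, all of them called, and under 0.1 for 18.

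The widest gaps were those of AT2G32160, AT1G67865, AT1G64360 and AT2G32870, given above. The narrowest belonged to AT3G09540 and AT3G15530 (0.02 each) and to AT1G23040 and AT2G32150 (0.04 each). AT3G09540 read 6.67, 6.01, 6.5 and 5.96 against 5.94, 5.20, 5.36 and 5.54 (difference -0.775), with fbn5-1 array 1 next to wild type arrays 2 and 4. AT1G23040 read 6.61, 6.80, 6.62 and 5.94 against 5.62, 5.71, 5.73 and 5.90 (difference -0.75), with wild type array 4 down at the level of fbn5-1 array 4. The other 2 had the opposite shape. AT3G15530 read 6.21, 6.26, 6.45 and 7.99 against 6.02, 6.07, 5.92 and 6.19, and AT2G32150 read 6.68, 7.09, 6.64 and 7.92 against 6.51, 6.19, 6.56 and 6.60. In both, wild type array 4 was high and the other 3 lay near fbn5-1, and neither was called.

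Wild type array 4 was the highest of its group in 68 members (42.8%) and the lowest in 59 (37.1%). Among the other probe sets of this level it was the highest in 24.1% and the lowest in 49.1%. The rule uses this array, so a high value there helped a gene to enter the set and a low one kept it out, and nothing is read from these shares. It lay more than 0.5 above the mean of the other 3 in 38 members and more than 0.5 below it in 14. The 107 members in which it was within 0.5 were all called, against 23 of the 38 and 13 of the 14. A shift of this array is part of the wild type spread that the fit uses, so these counts follow in part from how the call is made. Of the 16 members not called, 15 had wild type array 4 more than 0.5 above the other 3, and the exception was SWEET13.

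Without wild type array 4, 130 members were still lower by 0.6 or more, and 29 were lower by 0.26 to 0.58. The named genes among the 29 were VPS2.1, NCL, ARLA1D and pEARLI4. The most extreme case was AT1G50740, which read 6.17, 6.03, 6.01 and 9.07 in wild type and 5.64, 5.85, 5.76 and 5.77 in fbn5-1. Its difference was -1.065 with wild type array 4 and -0.315 without it. AT2G24550 read 5.39, 5.58, 5.80 and 7.81 against 4.31, 5.15, 5.16 and 5.30, and its difference moved from -1.165 to -0.61.

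**Figure D5:**
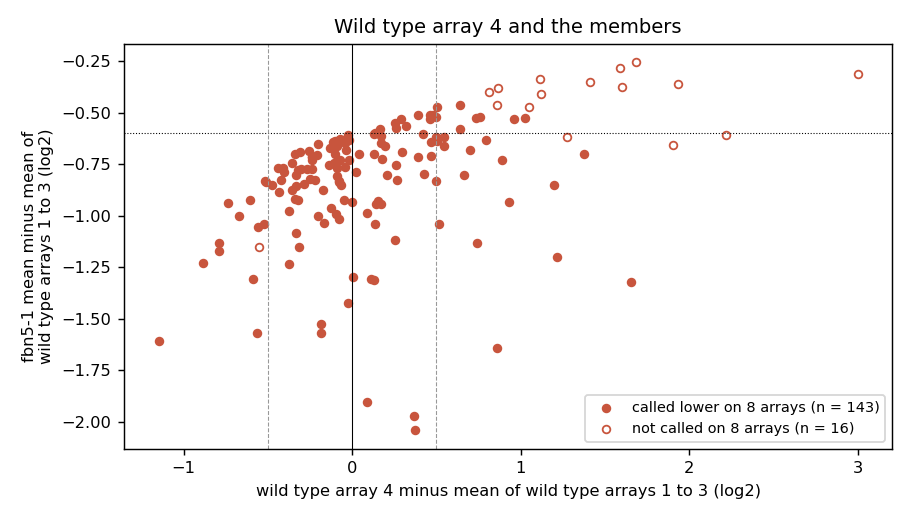
Each point is a member. The x axis is its signal on wild type array 4 minus the mean of wild type arrays 1 to 3, and the y axis is the fbn5-1 mean minus the mean of wild type arrays 1 to 3, both log2, so the y axis does not use wild type array 4. Filled points were called lower on 8 arrays and open points were not. Of the 16 open points, 15 lie right of the dashed line at 0.5, and the 29 points above the dotted line are less than 0.6 lower without wild type array 4.

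Leaving out each of the 8 arrays in turn, 112 members were called lower in every fit, and 31 of the 143 lost the call in at least 1. Of the 16 not called on 8 arrays, 11 were called without wild type array 4. The number called was highest without wild type array 4 (152) and lowest without fbn5-1 array 2 (116). That array was the lowest of the fbn5-1 arrays in 78 members. Its median deviation from the fbn5-1 mean was -0.105 in the members and -0.055 in the other probe sets of this level. The array nearest to the other label was most often wild type array 4 (59 members) and fbn5-1 array 4 (64 members). Among the 1966 other probe sets of this level, wild type array 4 was the lowest of its group in 965 and fbn5-1 array 4 the highest of its group in 691.

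The values just inside and just outside the rule were close. At the lower level bound, PWD (wild type mean 6.0) and AT1G49470 (6.01) were inside, and AT3G15780 (5.985, difference -0.90) and AT3G45260 (5.98, difference -0.62) were outside. At the upper bound, ECS1 (10.96) and AT1G67865 (10.87) were inside and AT5G42530 (11.16, difference -0.885) outside. AT1G27540 and AT1G75400 had a difference of exactly -0.60, while AT4G02340 and AT5G06370, at -0.5975, were outside. AKINBETA1, which encodes a subunit of the SnRK1 kinase complex, had a difference of -1.035 and was kept out by an overlap of 0.06, and AT2G31810 (-0.74) by an overlap of 0.03.

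For 4 member genes a second probe set was measured, and in each its groups overlapped and it was not called. The second probe set of AT2G21185 read 4.53, 4.43, 4.41 and 4.16 against 4.00, 3.88, 4.29 and 4.25 (difference -0.28), where its member probe set had -1.01. That of AT4G38550 read 4.37, 4.49, 4.63 and 5.91 against 4.38, 4.55, 4.25 and 3.81 (difference -0.60), where the member probe set had -0.935. For both, the direction was the same and smaller in size. In AT5G10946 the second probe set had -0.27 (6.12, 6.26, 6.01 and 5.96 against 5.77, 5.46, 5.83 and 6.21), where the member probe set had -1.01. In AT5G18260 the second probe set was higher, by 0.19 (4.50, 4.55, 4.50 and 4.66 against 4.68, 4.95, 4.72 and 4.61), where the member probe set had -0.835. The wild type mean of the second probe set was 6.09 for AT5G10946, inside the level window, and 4.38 to 4.85 for the other genes, below it. Which transcript or stretch each probe set reads was not examined.

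Some members lie next to each other in the genome. By gene order in the RefSeq table of assembly TAIR10.1, 5 pairs of members are neighbours: AT1G64360 with AT1G64370, AT1G67860 with AT1G67865, AT1G76955 with AT1G76960, AT2G32150 with AT2G32160, and AT2G32870 with AT2G32880. Their differences were -2.06 and -0.935, -0.92 and -1.525, -0.61 and -1.30, -0.62 and -1.925, and -1.48 and -0.71, in that order. Of 35 members with a measured neighbour of this level, 10 had a member beside them (28.6%), whereas 29 of 325 other genes did (8.92%). The 10 are the 5 pairs counted from both sides, so these shares do not count independent genes and nothing is read from them. Probe sequences were not used, so signal shared between similar neighbours cannot be told apart from separate transcripts.

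Pathway lists for leaf held few genes that the array names. Of 31 lists, 27 had a tested gene, and the list of sugar transport, starch and sucrose metabolism was the one that held members, SFP2 and PWD. PWD stands there for AT4G24450, and AT5G26570, the other locus of that symbol, is not counted. In that list 2 of 11 tested genes were called lower, 0 higher and 9 not, with a median of 0.0125 beside -0.015 over all tested probe sets. The list holds no SWEET gene. The member SWEET13, SWEET11 (called lower) and SWEET2 (called higher) are therefore not in its counts. TMT1, a vacuolar sugar transporter, had -0.435, and SBE2.2, a starch branching enzyme, 0.16, both not called. The other lists held 0 members, and many of them had few tested genes: 1 each for abscisic acid, salicylic acid and the proteasome, 2 for jasmonate, 3 for photorespiration, 5 for senescence and 6 for WRKY factors. The abscisic acid gene, XERICO, was called lower (difference -0.84, limma adjusted p = 0.013), and its wild type mean of 5.81 lies below the level window.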

How the data were processed

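The deposited values are log2 signals, 1 per probe set and array, on 8 one-colour Affymetrix arrays. MAS5 is named in the submitters' processing notes. How background, scaling and logs were treated is not given in the sources used here, and base 2 was read from the range of the values (0.37 to 12.77), so folds assume base 2. The series matrix of 28583 probe sets was identical to the shared rows of a series table. In it 16746 probe sets carry 1 gene symbol, 758 several and 11079 none; 16601 of the 16746 were found in the RefSeq table of assembly TAIR10.1, used for names and gene order. Array medians were 3.42 to 3.49. The number of arrays limits the precision.

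Probe sets with a mean above the 40th percentile (log2 2.79) were tested, 17147 in all, with limma 3.58.1 in R 4.3.3 (lmFit, eBayes with intensity trend, two-sided), with the wild type mean taken from the fbn5-1 mean. Called means a Benjamini-Hochberg adjusted p under 0.05 over all 17147. The fit was tested on simulated data. Of a gene's probe sets, the brightest stands for it in lists. The members and lists were chosen with earlier results of these data known, and the 7 gene families after the members were seen. Another family is not reported here. The symbol FDH was removed from an epidermis list because here it names formate dehydrogenase. Members chosen for individual values are the 12 lowest, up to 5 per function, the 4 widest and 4 narrowest gaps, those next to a threshold and those with an outlying array, most of which stand in the closing section. Second probe sets, neighbours, the family genes outside the set, XERICO, TMT1 and SBE2.2 were chosen after their values were seen. Functions are background knowledge and were not read from the files. Alternatives were quantile normalization, 16 added to the linear signal, no filter, no intensity trend, the replicate number as a block and leaving out each array.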

Additional observations from a re-analysis of the deposited data

Results flagged for a closer look

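Of 318 groups of 4 arrays (159 members, 2 labels), 23 had 1 array whose distance to the nearest of the other 3 took more of the group's range than Dixon's critical value for 4 samples. Chance alone does so in about 1 in 20 unselected groups, which would be 15.9 here, but these groups were selected on the same values and share arrays, so the counts cannot be set against each other. They belong to 21 members, and in 14 of the 23 the array was wild type array 4, above the rest. These high values were 9.07 for AT1G50740 (the other 3 averaged 6.07), 7.81 for AT2G24550 (5.59), 7.94 for AT4G32030 (6.0), 7.99 for AT3G15530 (6.31), 7.52 for AT4G21570 (5.92), 9.38 for AT1G80610 (7.79), 7.42 for AT2G25250 (6.01), 8.69 for AT3G52800 (7.31), 9.70 for AT4G38550 (8.43), 8.54 for AT5G44060 (7.34), 8.47 for AT2G31800 (7.51), 9.63 for AT1G53210 (8.77), 6.96 for AT4G18070 (6.16) and 7.26 for AT4G34480 (6.62).

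The same array was low in 4 members: 10.71 for ECS1 (the other 3 averaged 11.04), 7.44 for AT4G14990 (8.04), 5.61 for AT5G18260 (6.28) and 5.87 for AT3G52105 (6.19). Wild type array 1 was low in AT3G62550, at 8.47 (8.88). On the fbn5-1 side, array 1 was low in AT2G24550, at 4.31 (5.20), and high in AT4G18070, at 5.80 (5.44). Array 4 was high in AT2G21185, at 5.99 (5.70), and in AT4G32340, at 6.43 (6.04). What sets wild type array 4 apart was not tested.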

How the results depend on the processing

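No difference of the 58 members chosen for individual values changed sign under the 11 alternatives run on them, but only quantile normalization could have changed one. Leaving out an array, adding 16 or the replicate block cannot reverse a sign where the groups do not overlap. Of the 638 values from these members and alternatives, 559 kept their side of the threshold, 68 lost the call and 11 gained it. The count of tested probe sets called was 2876 on 8 arrays, 1731 with the replicate block, and 1738 to 3875 without each array in turn, lowest without wild type array 2 and highest without wild type array 4; the cause was not tested. It moved by over 1.5 times without any of wild type arrays 1 to 3 and without fbn5-1 arrays 1 or 3. It was 2933 with quantile normalization, 2857 with 16 added, 2430 with no filter and 2736 with no intensity trend. Members called lower numbered 143, and 116 to 152 without each array. The rule was met by 113 genes with quantile normalization (0 new) and by 131 with 16 added (20 new). Without each array 145 to 197 met it. Without wild type array 4, 126 of the 159 remained, and 71 others entered. The members' median difference was -0.77, and -0.70 with quantile normalization. Between same-numbered arrays, deviations from the group means correlated at 0.16, -0.19, -0.04 and 0.00. Wild type array 4, which stands apart, enters the mean behind every wild type deviation. These values therefore cannot show whether the replicate numbers pair the arrays. With the replicate block 131 members were called lower. Of the 58, SWEET13 and AT1G53210 gained the call and 7 lost it (FAMT, AT1G23040, AT3G52800, AT5G18260, AT4G18070, AT2G31800 and AT4G34480). Probe sets with a mean of log2 2.79 or less, near background, were not tested, and the members' wild type means lie well above this. Their fbn5-1 values can lie lower. AT2G35070 read 3.30 and 3.38 on fbn5-1 arrays 2 and 3, below the array medians of 3.42 to 3.49. With 16 added to the linear signal its difference was -1.48, and that of AT1G64360 was -1.59.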
